A study of Menidia menidia with 24 samples.

Results

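HypOA, the combination of low dissolved oxygen (DO) and high PCO2, was applied here to larvae of the Atlantic silverside (Menidia menidia), a coastal forage fish. Of the 24 whole larvae in the series, 12 came from control parents and are described here, chosen by their labels alone. The 6 CH larvae had control parents and were reared under HypOA (DO 35%, PCO2 2500 µatm), and the 6 CC larvae had control parents and were reared under control conditions (DO 100%, PCO2 600 µatm). Both groups were kept at 20°C and sampled at 19 days post-fertilization (dpf). These are the levels in the sample labels, from which the levels in the study's methods differ slightly. The other 12 larvae, 6 reared under HypOA (HH) and 6 under control conditions (HC), had parents that were exposed to HypOA by night and to control water by day before spawning. They share no larva with CH or CC and serve here as another reading of the same rearing contrast. That reading is not independent. By the study's supplement, each tank held offspring of both parental groups, and HypOA water came from a shared mixing tank. A difference between tanks cannot be told apart from one of rearing in either pair of groups.

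Within each parental treatment the eggs and milt of several wild adults were pooled, so CH and CC larvae were offspring of the same parental pool, and parents of single larvae are unknown. The study's methods state that larvae of a treatment shared rearing containers, which the labels do not identify. Each group came from fewer containers than larvae. The larvae had to be treated as independent, p-values measure the spread between them and may be too small, and a difference between containers cannot be told apart from one between groups. All were sampled at a fixed age, so rearing condition and the developmental stage reached at that age cannot be told apart. RNA was taken from whole bodies. A change in a transcript can mean more or fewer cells that make it, or more or less RNA per cell, and these cannot be told apart.

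When oxygen runs short, fish can carry more of it with hemoglobin in red blood cells, hold and move it inside muscle with myoglobin, and lower the demand of the mitochondria, where cytochrome c oxidase passes electrons to oxygen. High PCO2 loads body fluids with acid, which is countered by moving bicarbonate, protons and sodium across membranes. At this age a silverside larva is also building its brain, eye, skeleton, muscle and gut, tissues whose marker transcripts can be followed in RNA from the whole body.

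The deposited values are read counts per transcript. Counted reads were 11894042 to 13194006 in CH larvae (median 12353023), against 12165061 to 16120500 in CC larvae (median 12848760.5; exact permutation test, two-sided, p=0.117). The deposited counts hold no unaligned reads, so shares are of aligned reads. The share of aligned reads that fell on no annotated feature was 21.04% to 22.99% in CH larvae and 19.16% to 20.86% in CC larvae, without overlap (exact permutation test, two-sided, p=0.00216, adjusted over 4 read classes p=0.00432). Counted reads made up 68.58% to 73.35% of aligned reads in CH and 73.55% to 74.61% in CC, again without overlap (exact permutation p=0.00216, adjusted p=0.00432). The part of this difference in the results that follow was not tested. The 10 most abundant transcripts took 19.8% to 28.3% of the counts of a CH larva and 20.3% to 27.5% of those of a CC larva.

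CH was compared with CC for 17262 transcripts in a single edgeR quasi-likelihood fit of all 24 larvae, and a transcript with a Benjamini-Hochberg FDR below 0.05 was called a DET. This held for 9.25% of the tested transcripts, 4.99% upward and 4.26% downward. Values are given as CPM (counts scaled to a common library size with TMM factors) and changes as log2 fold changes of CH over CC. Upward changes were smaller than downward changes, with a median of 0.57 among the 861 DETs that rose and -0.73 among the 736 that fell. Changes of more than 2-fold were found for 50 DETs that rose and 199 that fell. The median over all tested transcripts was -0.0064.

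The larvae of both groups separated more often among upward DETs. No CH larva lay within the range of the CC larvae for 312 of 861 upward and 130 of 736 downward DETs, while such separation was found for 2.87% of all tested transcripts. Over all DETs, CC 3 was the CC larva most like the CH group, through its downward DETs. Its level lay on the CC side of the CH median for 98.5% of upward but 85.7% of downward DETs, whereas for CC 1 these shares were 99.7% and 99.6%. In CC 5 they were 98.5% and 94.3%, so CC 3 did not stand out among upward DETs. DETs were found at all levels of expression, with 5.28% of transcripts called in the lowest of 4 equal classes of mean log2 CPM and 11.5% in the highest.

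Single CC larvae decided many calls. Leaving out CC 1 removed 771 of the 1597 DETs (48.3%) and leaving out CC 2 removed 765 (47.9%). A fit of the CH and CC larvae alone called 544 transcripts. Counts of list members still called, given below, are to be read beside these totals. With each of the 12 larvae left out in turn, 685 DETs kept their call every time, 427 that rose and 258 that fell.

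Symbols were available for 1207 of the 1597 DETs. They come from the readable part of the study's own result table for CH versus CC, so every named transcript had already been called in this comparison. For the same reason, all 438 transcripts in the 23 functional lists below are DETs, and the number called in a list says nothing about it. The split into higher and lower, the levels in each larva, and the values in HH and HC larvae are what the lists describe. The lists were chosen with earlier results of these data known, so splits and list means of CH and CC larvae are descriptions only. A gap between CH and CC in a list mean is partly built in by the choice of DETs. Among all 1597 DETs, 861 rose and 736 fell. Symbols are those of the best-matching annotated protein, mostly of other vertebrates. Reads that aligned at several sites were set aside by the counting, on average 5.618% of aligned reads in CH and 5.305% in CC. Where copies of a gene are nearly identical, as may hold for globins and digestive proteases, their levels may therefore be too low.

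**Figure D1:**
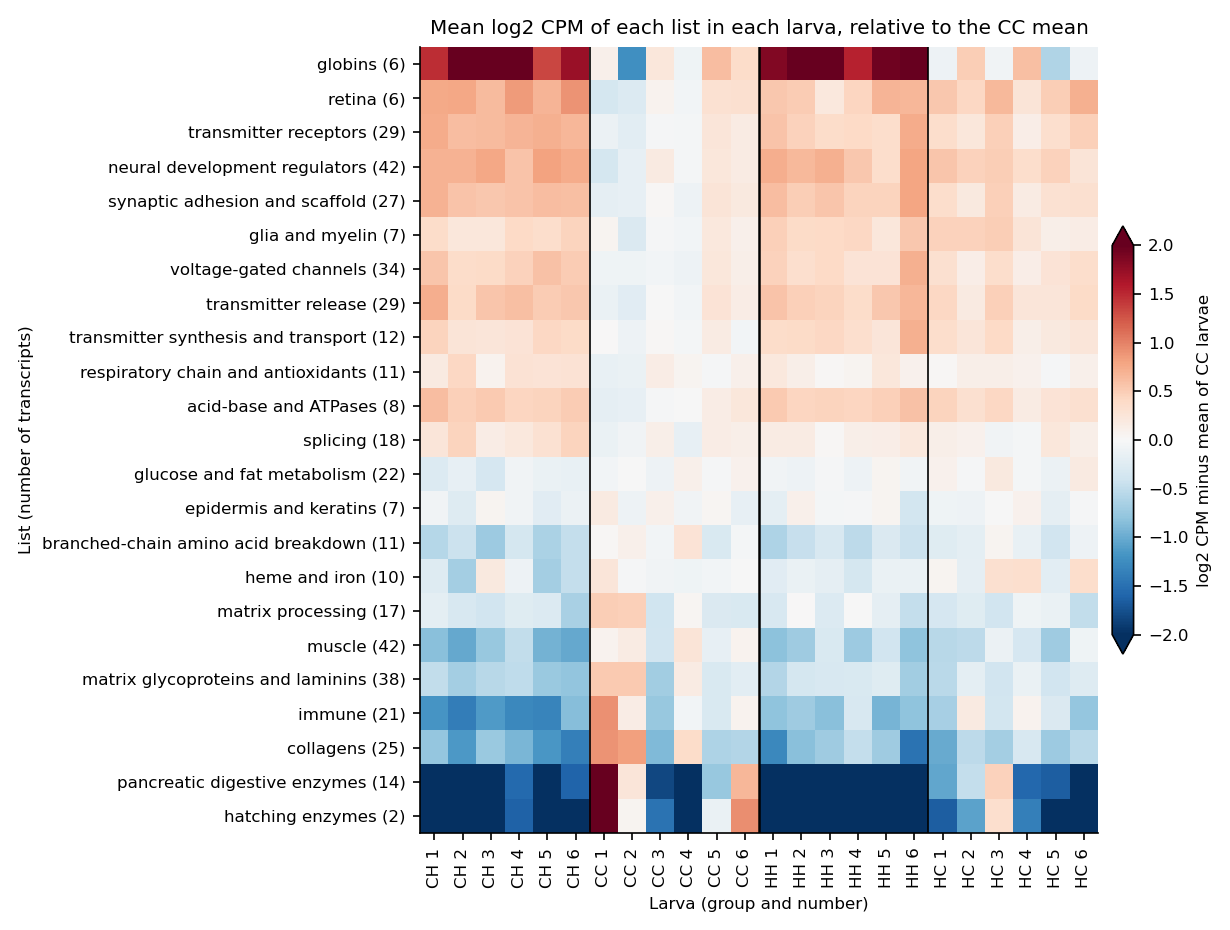
Mean log2 CPM of the transcripts of each list (rows, with the number of transcripts) in each of the 24 larvae (columns), minus the mean of the 6 CC larvae, with colors clipped at -2 and 2. Globins and neural lists lie above the CC mean in all 6 CH larvae, while collagen, matrix and digestive enzyme lists vary widely among the CC larvae themselves, from -0.89 in CC 3 to 0.90 in CC 1 for collagens. All listed transcripts were chosen as DETs of CH versus CC.

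Globins, the proteins that bind oxygen, had the highest median change of the 23 lists. All 6 globin transcripts with a symbol were higher in CH larvae, with a median log2 fold change of 2.34 and a range of 0.75 to 3.62. The largest was HBBA (mme15343), a hemoglobin beta chain, with 5.55 to 128 CPM (median 67.6) in CH larvae, against 0.232 to 14.5 CPM (median 4.06) in CC larvae (log2 fold change 3.62, SE 0.69, FDR 0.00257). HBB (mme15344), also annotated as a beta chain, had 1.09 to 34.3 CPM (median 13.9) in CH larvae, against 0.232 to 3.11 CPM (median 1.39) in CC larvae (log2 fold change 3.57, SE 0.62, FDR 0.00135). The other HBBA transcript (mme15342) had 1.08 to 23.8 CPM (median 5.09) in CH larvae, against 0.155 to 2.51 CPM (median 1.56) in CC larvae (log2 fold change 2.46, SE 0.60, FDR 0.0120). The ranges overlapped in each of them, through CH 5 in mme15343, CH 6 in mme15344 and both CH 1 and CH 2 in mme15342, while the other CH larvae lay above all CC larvae.

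The remaining globins were lower in level. Myoglobin, MYG (mme18570), had 0.920 to 5.49 CPM (median 3.09) in CH larvae, against 0 to 1.57 CPM (median 0.320) in CC larvae (log2 fold change 2.22, SE 0.67, FDR 0.0365). It lost its call when CC 2, CC 3, CC 4, CC 5, CH 1, CH 2 or CH 4 was left out, with an FDR of up to 0.0866. HBAD (mme16843), a hemoglobin alpha chain, changed by 0.91 (FDR 0.0274) and lost its call without CC 2, CC 6, CH 3 or CH 4 (FDR up to 0.0776). CYGB2 (mme14487), a cytoglobin, a globin of many tissues, had 5.76 to 10.7 CPM (median 8.26) in CH larvae, against 2.61 to 7.35 CPM (median 4.64) in CC larvae (log2 fold change 0.75, SE 0.20, FDR 0.0192). Its FDR was 0.0540 without CC 1.

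The mean over the 6 globins, each set against its CC mean, was 1.34 to 3.15 log2 units in CH larvae and -1.22 to 0.62 in CC larvae, with all CH larvae above all CC larvae. This gap is partly built in, since the 6 were chosen for their difference between CH and CC. None of the 6 separated on its own. The lowest mean among CC larvae came from CC 2. A fit of the CH and CC larvae alone called 2 of the 6 globins.

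Of the heme and iron list, 4 of 10 transcripts rose and 6 fell, and those that rose included both forms of the enzyme that starts heme synthesis. HEM0 (mme07522) is the form of 5-aminolevulinate synthase, the first enzyme of heme synthesis, that is used by red cell precursors. It had 20.8 to 70.0 CPM (median 47.6) in CH larvae, against 11.8 to 46.7 CPM (median 17.3) in CC larvae (log2 fold change 1.00, SE 0.30, FDR 0.0374), and lost its call when any of 8 larvae was left out (FDR up to 0.0981). The form used by other tissues, HEM1 (mme07232), had 10.5 to 15.3 CPM (median 11.9) in CH larvae, against 6.19 to 9.41 CPM (median 7.56) in CC larvae (log2 fold change 0.67, SE 0.18, FDR 0.0210), with no overlap between groups and an FDR of 0.0599 without CC 2. TAL1 (mme13415), a transcription factor needed for blood formation, had 21 to 39 CPM (median 29.8) in CH larvae, against 11.1 to 22.8 CPM (median 14.8) in CC larvae (log2 fold change 0.89, SE 0.20, FDR 0.00694). Each of these transcripts was higher in CH, by 1.59-fold for HEM1, 1.86-fold for TAL1 and 2-fold for HEM0.

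Hepcidin and the iron-sulfur cluster machinery fell. HEPC (mme06141), the liver hormone hepcidin, blocks the release of stored iron into the blood. It had 1.00 to 7.53 CPM (median 3.84) in CH larvae, against 9.72 to 30.0 CPM (median 18.9) in CC larvae (log2 fold change -2.20, SE 0.55, FDR 0.0143), 4.59-fold lower in CH and without overlap. ISCU (mme11399), the scaffold on which iron-sulfur clusters are assembled in mitochondria, had 21.1 to 36.8 CPM (median 26.3) in CH larvae, against 45.9 to 66.5 CPM (median 56.9) in CC larvae (log2 fold change -1.06, SE 0.13, FDR 0.000139). This was among the lowest FDR values of the comparison, and no CH larva reached the lowest CC larva.

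Partners of ISCU went the same way. NFS1 (mme02886), the desulfurase that supplies sulfur to ISCU, had 11.3 to 30.0 CPM (median 16.2) in CH larvae, against 23.8 to 48.7 CPM (median 34.7) in CC larvae (log2 fold change -1.0, SE 0.18, FDR 0.00219). ISCA1 (mme01682), which acts later in the same assembly, had 16 to 32.3 CPM (median 22.3) in CH larvae, against 25.5 to 42.5 CPM (median 36.3) in CC larvae (log2 fold change -0.58, SE 0.14, FDR 0.0121). The groups overlapped through CH 3 in NFS1 and through CH 3 and CH 6 in ISCA1, and both transcripts kept their calls with every larva left out.

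The rest of the heme and iron list was mixed. CY561 (mme15485), a membrane cytochrome b561 that carries electrons from ascorbate, was 2.25-fold higher in CH larvae, with 4.33 to 8.43 CPM (median 6.32) in CH larvae, against 2.19 to 3.44 CPM (median 2.95) in CC larvae (log2 fold change 1.17, SE 0.20, FDR 0.00135). SFXN1 (mme05587), a mitochondrial serine carrier of the sideroflexin family, changed by -0.70 (FDR 0.0131). FX1AA (mme04536) changed by -1.01 (FDR 0.0301) and lost its call without CC 1, CC 2, CH 2, CH 5 or CH 6 (FDR up to 0.0833).

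Among transcripts of the respiratory chain and of defence against reactive oxygen, 7 rose and 4 fell. A fit of the CH and CC larvae alone called 1 of the 7 and all 4 of the others. CX6B1 (mme16698), a nuclear-coded subunit of cytochrome c oxidase, showed the clearest rise, with 138 to 235 CPM (median 175) in CH larvae, against 36.5 to 68.9 CPM (median 50.0) in CC larvae (log2 fold change 1.75, SE 0.22, FDR 0.000139). The lowest CH larva, CH 4, had 138 CPM, well above the 68.9 CPM of the highest CC larva, CC 6. COX5A (mme02048), another subunit of the same enzyme, was only 1.44-fold higher, with 148 to 288 CPM (median 215) in CH larvae, against 97.8 to 181 CPM (median 151) in CC larvae (log2 fold change 0.52, SE 0.14, FDR 0.0224). It lost its call without CC 1, CC 2 or CH 2 (FDR up to 0.0686).

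Of the listed enzymes that remove peroxide and superoxide, PRDX5 and SODC fell and GPX3 rose. PRDX5 (mme10897), a peroxiredoxin, had 95.6 to 119 CPM (median 109) in CH larvae, against 128 to 196 CPM (median 163) in CC larvae (log2 fold change -0.57, SE 0.11, FDR 0.00257). SODC (mme10565), the copper-zinc superoxide dismutase, had 76.4 to 89.6 CPM (median 81.4) in CH larvae, against 97.6 to 122 CPM (median 109) in CC larvae (log2 fold change -0.40, SE 0.09, FDR 0.00513). These changes were small, 1.49-fold and 1.32-fold lower in CH, but the groups did not overlap. GPX3 (mme04240), a secreted glutathione peroxidase, went the other way by 0.58 (FDR 0.0240) and lost its call without CC 2, CC 4, CH 1 or CH 2 (FDR up to 0.0709).

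The inner mitochondrial membrane gave further separated transcripts. NNTM (mme11334), the transhydrogenase that makes mitochondrial NADPH, had 112 to 219.6 CPM (median 151) in CH larvae, against 229 to 594 CPM (median 357) in CC larvae (log2 fold change -1.27, SE 0.24, FDR 0.00254). MCU (mme05755), the pore of the mitochondrial calcium uniporter, had 19.4 to 36.9 CPM (median 27.8) in CH larvae, against 38.9 to 58.8 CPM (median 41.1) in CC larvae (log2 fold change -0.69, SE 0.16, FDR 0.00848). Both were lower in every CH larva than in any CC larva. RFESD (mme03563), a protein with a Rieske-type iron-sulfur domain, was higher in CH by 1.08 (FDR 0.00907).

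Smaller rises were found for TIM8A, an import chaperone, at 0.56 (mme03888) and 0.57 (mme05145), and for the mitochondrial ribosome protein RM51 (mme06287) at 0.50. The call of TIM8A mme03888 was lost without CC 1, CC 2 or CH 2 (FDR up to 0.0863), that of TIM8A mme05145 without CC 1, CC 2, CC 6, CH 1 or CH 2 (FDR up to 0.100), and that of RM51 when any of 7 larvae was left out (FDR up to 0.104).

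**Figure D2:**
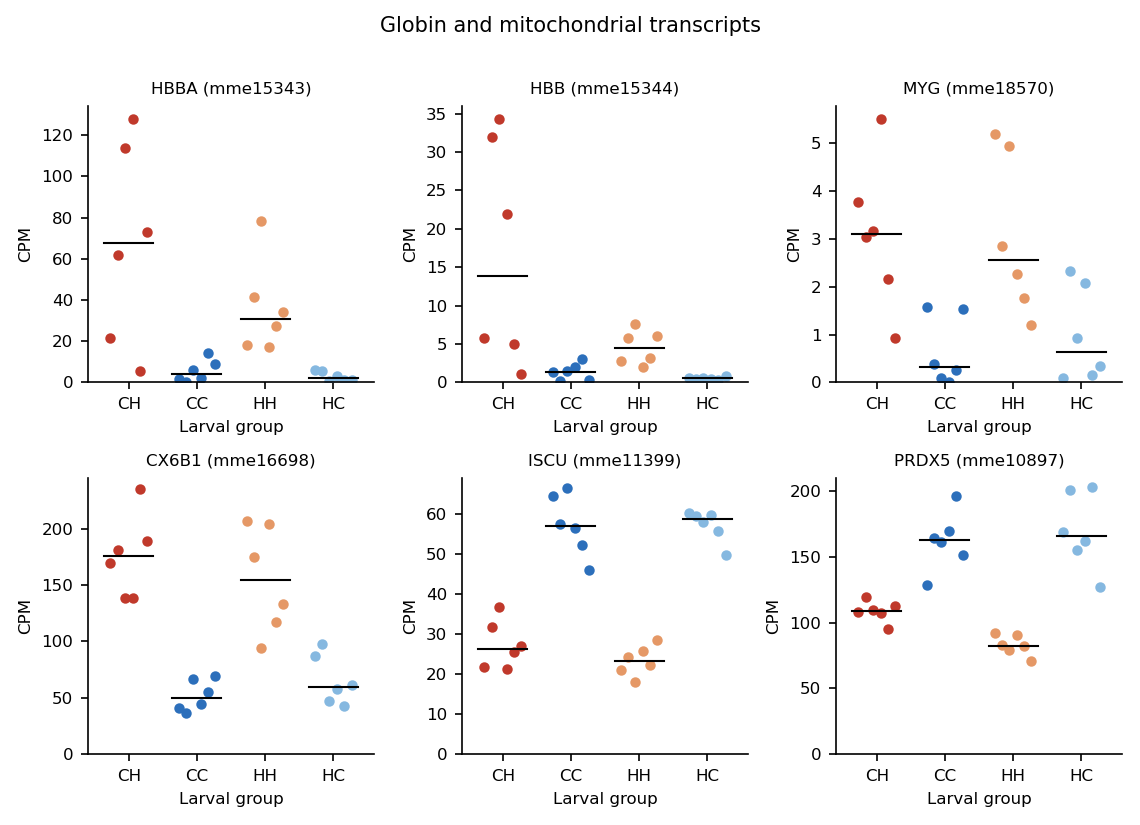
CPM of 6 transcripts in single larvae of the groups CH, CC, HH and HC (points, n=6 each), with the group median as a line. CX6B1 lay at 138 CPM or more in all CH larvae and at 68.9 CPM or less in all CC larvae, and ISCU and PRDX5 were lower in every CH larva than in any CC larva.

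Transcripts of the nervous system made up most of the listed transcripts that rose, in lists chosen with earlier results of these data known. In 8 lists of neurons, glia, eye and neural development, 176 of 186 transcripts were higher in CH larvae and 10 were lower. Among all 1597 DETs, 861 were higher. The larvae of both groups did not overlap for 91 of the 186, against 312 of all 861 upward DETs and 27.7% of all DETs. List medians were moderate and even, while single transcripts changed by -1.55 to 2.17. List medians lay between 0.56 for transmitter synthesis and transport and 0.80 for retina, beside a median of 0.57 over all upward DETs. The CH larvae were most alike in the 29 transmitter receptors. The list mean there was 0.62 to 0.74 log2 units above the CC mean in CH larvae and -0.21 to 0.24 in CC larvae. For transmitter release it was 0.39 to 0.73 in CH larvae. For transmitter synthesis and transport CH larvae were no closer together than CC larvae (standard deviation 0.0907 in CH and 0.0908 in CC).

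The machinery that releases transmitter at the nerve terminal was higher for 28 of 29 transcripts, with a median of 0.57, and separated in 17. SN25A (mme15662), a SNAP-25 protein that drives fusion of synaptic vesicles, had 247 to 290.5 CPM (median 266) in CH larvae, against 122 to 211 CPM (median 151) in CC larvae (log2 fold change 0.72, SE 0.11, FDR 0.000920). AP3B2 (mme01896), a neuronal adaptor subunit for vesicle sorting, had 37.8 to 53.5 CPM (median 44.5) in CH larvae, against 23.6 to 36.5 CPM (median 28.3) in CC larvae (log2 fold change 0.62, SE 0.11, FDR 0.00120). The exception was DYN1 (mme08931), a dynamin that pinches vesicles off the membrane, with 5.25 to 8.46 CPM (median 7.48) in CH larvae, against 10.1 to 19.2 CPM (median 14.4) in CC larvae (log2 fold change -1.03, SE 0.20, FDR 0.00249). No CH larva overlapped the CC larvae in any of these.

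Enzymes and carriers of transmitters were higher for 10 of 12 transcripts. SC6A1 (mme03084), the GABA transporter GAT-1 of neurons, had 92 to 131 CPM (median 110.0) in CH larvae, against 52.2 to 83.6 CPM (median 60.6) in CC larvae (log2 fold change 0.82, SE 0.12, FDR 0.000553). EAA2 (mme02386), which clears glutamate from the synapse, had 343 to 436 CPM (median 401) in CH larvae, against 235 to 319 CPM (median 247) in CC larvae (log2 fold change 0.58, SE 0.10, FDR 0.00179). The opposite direction was taken by S6A13 (mme10389), a GABA and taurine transporter known in mammals mainly from liver, kidney and the coverings of the brain. It had 1.09 to 2.42 CPM (median 1.71) in CH larvae, against 2.15 to 8.31 CPM (median 4.79) in CC larvae (log2 fold change -1.55, SE 0.29, FDR 0.00247), and the other transcript with this symbol, mme01931, changed by -0.77 (FDR 0.0297). The groups overlapped in both S6A13 transcripts and in neither of the preceding carriers.

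Receptors were higher for 28 of 29 transcripts (median 0.74). GLRB (mme03791), the beta subunit of the inhibitory glycine receptor, had 21.8 to 29 CPM (median 26.1) in CH larvae, against 12.1 to 19.3 CPM (median 14.3) in CC larvae (log2 fold change 0.75, SE 0.12, FDR 0.000975). CCG3 (mme14971), an auxiliary subunit of AMPA-type glutamate receptors, had 29 to 44.9 CPM (median 35.9) in CH larvae, against 16.1 to 26.7 CPM (median 20.1) in CC larvae (log2 fold change 0.79, SE 0.13, FDR 0.00112). HTR1A (mme05444), a serotonin receptor, was lower, with 19.2 to 31.6 CPM (median 29.7) in CH larvae, against 34.7 to 77.2 CPM (median 47.9) in CC larvae (log2 fold change -0.90, SE 0.19, FDR 0.00564). All 3 were without overlap, which held for 13 of the 29, against 312 of all 861 upward DETs. ACHB (mme17693), annotated as an acetylcholine receptor subunit, was not in this list and was lower, by -0.55 (FDR 0.0118).

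Voltage-gated channels and their subunits were higher for 31 of 34 transcripts (median 0.58). CA2D2 (mme03221), an alpha-2/delta subunit of calcium channels, had 47.1 to 58.2 CPM (median 57.1) in CH larvae, against 30.7 to 40.6 CPM (median 34.7) in CC larvae (log2 fold change 0.62, SE 0.10, FDR 0.000979). CAC1B (mme11177), the N-type calcium channel of nerve terminals, had 13.1 to 15.2 CPM (median 14.5) in CH larvae, against 6.58 to 9.59 CPM (median 8.53) in CC larvae (log2 fold change 0.79, SE 0.13, FDR 0.00122). Of the other alpha-2/delta forms, 1 of the transcripts annotated CA2D1 (mme17298) was lower, with 32.7 to 51.2 CPM (median 36.9) in CH larvae, against 52.8 to 103 CPM (median 78.3) in CC larvae (log2 fold change -0.99, SE 0.18, FDR 0.00231). Another CA2D1 transcript (mme02275) was higher, by 0.62 (FDR 0.00496), as was CA2D3 (mme03241), by 0.68 (FDR 0.0141). CA2D1 is known from skeletal muscle as well as brain.

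Adhesion proteins and scaffolds of the synapse were higher for 26 of 27 transcripts (median 0.66). LRRT2 (mme04246), which links excitatory synapses across the cleft, had 12.8 to 15.5 CPM (median 13.5) in CH larvae, against 5.25 to 10.3 CPM (median 6.78) in CC larvae (log2 fold change 0.97, SE 0.14, FDR 0.000553). LRC4B (mme16626), another postsynaptic adhesion protein, had 31.4 to 36.4 CPM (median 33.5) in CH larvae, against 15.8 to 26.5 CPM (median 18.3) in CC larvae (log2 fold change 0.76, SE 0.12, FDR 0.000878). The member that fell was HOME1 (mme01331), a Homer scaffold protein of synapse and muscle, with a change of -0.55 (FDR 0.0149) and overlapping groups.

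All 42 listed regulators of neural development were higher (median 0.68), against 861 of all 1597 DETs. The list was filled with earlier results known and holds no DET that fell, so this is not a share of neural development. Outside it, the semaphorin SEM5A (mme12037) changed by -1.16 (FDR 0.00231) and the neuron navigator NAV3 (mme17030) by -1.03 (FDR 0.00249). SHH (mme12172), the Sonic hedgehog signal that patterns the ventral neural tube and other organs, had the largest change of the list, with 9.68 to 21.6 CPM (median 13.5) in CH larvae, against 3.95 to 6.00 CPM (median 5.15) in CC larvae (log2 fold change 1.57, SE 0.22, FDR 0.000446). LHX1 (mme05098), a homeodomain factor of several neuron types, had 13.9 to 19.5 CPM (median 17.5) in CH larvae, against 7.38 to 11.7 CPM (median 9.33) in CC larvae (log2 fold change 0.90, SE 0.14, FDR 0.000745). The other 40 ranged up to 1.19 for LMO3, a cofactor of transcription. Separation was found for 16 of the 42, near the share among all upward DETs (312 of 861).

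Retina transcripts were higher for all 6 and glial transcripts for 5 of 7. LRIT1 (mme05569), a synaptic protein of photoreceptors, had 9.29 to 14.9 CPM (median 13.1) in CH larvae, against 4.36 to 9.94 CPM (median 6.59) in CC larvae (log2 fold change 0.89, SE 0.17, FDR 0.00240), and XLRS1 (mme00114), retinoschisin, had 38 to 50.7 CPM (median 45) in CH larvae, against 24 to 38.8 CPM (median 29.8) in CC larvae (log2 fold change 0.51, SE 0.12, FDR 0.0102). CSPG5 (mme06071), a proteoglycan of neural tissue, had 64.3 to 70.6 CPM (median 68.1) in CH larvae, against 35.1 to 57.1 CPM (median 43) in CC larvae (log2 fold change 0.64, SE 0.10, FDR 0.000979), and HECAM (mme10307), an adhesion protein of glia, had 4.18 to 7.51 CPM (median 5.55) in CH larvae, against 1.94 to 3.89 CPM (median 3.59) in CC larvae (log2 fold change 0.85, SE 0.18, FDR 0.00507). The 2 members of the glial list that fell were PMP22, with overlapping groups, and MYPR, added after its value was seen. No myelin list was tested. In a fit of the CH and CC larvae alone the FDR of PMP22 was 0.0667. PMP22 (mme16326), a protein of peripheral myelin, had 60.7 to 96.4 CPM (median 80.1) in CH larvae, against 91.7 to 169 CPM (median 109) in CC larvae (log2 fold change -0.56, SE 0.15, FDR 0.0182), and MYPR, the proteolipid protein of myelin, changed by -0.62 (FDR 0.0316).

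**Figure D3:**
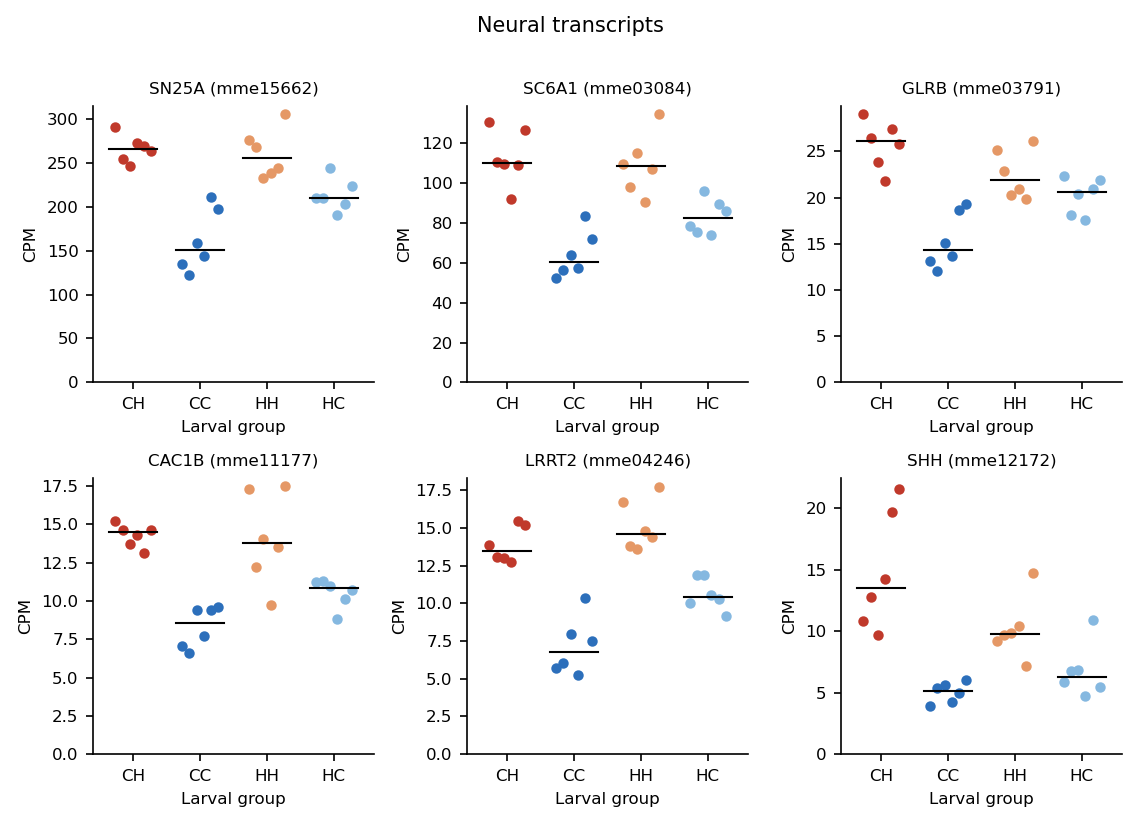
CPM of 6 neural transcripts in single larvae of the groups CH, CC, HH and HC (points, n=6 each), with the group median as a line and axes starting at 0. In each panel all CH larvae lie above all CC larvae, for SN25A at 247 CPM or more in CH and at 211 CPM or less in CC.

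The neural lists lost members when single CC larvae were left out, although their medians hardly moved. Of all DETs, 48.3% lost their call without CC 1 and 47.9% without CC 2. Without CC 1, 21 of 29 receptors and 23 of 42 developmental regulators remained called, with medians of 0.70 and 0.60. Without CC 2, 23 of 29 release transcripts and 25 of 34 channels were called, with medians of 0.54 and 0.53. A fit of the CH and CC larvae alone called 17 of 29 receptors and 17 of 42 developmental regulators. It called 20 of 29 release transcripts and 18 of 34 channels.

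The list of acid-base transport and ATPases held 8 DETs, all of them higher in CH, by a median of 0.47. Of these, 5 separated, S4A8 included, against 312 of all 861 upward DETs. Transport transcripts that were not called have no symbol here, and only 1207 of the 1597 DETs carry one, so the 8 do not describe acid-base transport as a whole. The study reports no consistent rise of acid-base genes under HypOA. It describes sodium/potassium ATPases as lower and some V-type ATPase subunits as slightly higher in CH. S4A8 (mme03380), a sodium-driven chloride/bicarbonate exchanger that raises cell pH, had 13.8 to 19.8 CPM (median 18) in CH larvae, against 9.17 to 13.8 CPM (median 9.63) in CC larvae (log2 fold change 0.74, SE 0.12, FDR 0.00112). AT1B4 (mme03869), annotated as a beta subunit of sodium/potassium ATPases, had 157 to 227 CPM (median 184) in CH larvae, against 113 to 157 CPM (median 129) in CC larvae (log2 fold change 0.48, SE 0.10, FDR 0.00335). Both kept their calls with each larva left out. Of the 8, 3 remained called without CC 1 and 4 without CC 2.

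Most of the listed DETs of extracellular matrix and muscle fell. In the 3 matrix lists 68 of 80 transcripts were lower in CH larvae and 12 were higher. Among all 1597 DETs, 736 were lower. Collagens, the fibers of skin, bone, tendon and basement membrane, were lower for 23 of 25 transcripts, with a median of -1.15 and the largest change at -2.67. Only 2 of the 25 separated, whereas 91 of 186 neural transcripts did. Among all DETs this held for 130 of 736 downward and 312 of 861 upward ones.

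CO6A2 (mme13759), a chain of collagen VI, shows how the groups overlapped. CC 1, CC 2 and CC 4 had 913, 914 and 597 CPM, while CC 3, CC 5 and CC 6 had 222, 204 and 194 CPM, and CH larvae had 125 to 217 CPM (median 151) (log2 fold change -1.71, SE 0.34, FDR 0.00328). CC 5 and CC 6 thus lay within the range of the CH larvae and CC 3 just above it. The mean over the 25 collagens was also spread among the CC larvae, with -1.36 to -0.75 log2 units in CH larvae, against 0.90 in CC 1 and 0.82 in CC 2 but -0.89 in CC 3. COHA1 (mme05521), collagen XVII of the skin's anchoring junctions, did separate, with 36.2 to 54.2 CPM (median 45.5) in CH larvae, against 57.3 to 150.0 CPM (median 97.9) in CC larvae (log2 fold change -1.15, SE 0.19, FDR 0.000979).

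Collagens known from cartilage went both ways. COAA1, a collagen X of cartilage and bone, changed by -2.18 (FDR 0.0133), and COBA1, a collagen XI chain, by -1.31 (FDR 0.0126). CO9A3 (mme07217), a chain of the cartilage collagen IX, was higher, with 205 to 293 CPM (median 234) in CH larvae, against 142 to 203 CPM (median 157) in CC larvae (log2 fold change 0.53, SE 0.13, FDR 0.0159). CO9A1, another chain of the same collagen, changed by 0.69 (FDR 0.0379). MATN3 (mme15717), a cartilage matrilin, had 65.6 to 140.4 CPM (median 112) in CH larvae, against 40.7 to 59.5 CPM (median 47.3) in CC larvae (log2 fold change 1.15, SE 0.20, FDR 0.00158), and separated. CO9A3 and MATN3 were named as members that moved against their lists, the others here were chosen after their values were seen, and no cartilage list was tested.

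Glycoproteins and laminins of the matrix were lower for 32 of 38 transcripts (median -0.88). NID1 (mme14536), a nidogen that ties basement membrane proteins together, had 5.45 to 7.95 CPM (median 7.05) in CH larvae, against 9.72 to 28.9 CPM (median 15.7) in CC larvae (log2 fold change -1.35, SE 0.22, FDR 0.000990), without overlap. LAMB1 (mme17184), a laminin beta chain, had 16.6 to 30.1 CPM (median 18.9) in CH larvae, against 25.4 to 47.5 CPM (median 37.7) in CC larvae (log2 fold change -0.89, SE 0.15, FDR 0.00112), where CH 4 alone lay within the CC range. Enzymes that build or cut the matrix were lower for 13 of 17. RECK (mme11909), an inhibitor of matrix proteases, had 8.78 to 15.1 CPM (median 12.6) in CH larvae, against 10.6 to 53.1 CPM (median 28.7) in CC larvae (log2 fold change -1.28, SE 0.29, FDR 0.00694), and LOXL1 (mme00535), a crosslinking oxidase, had 9.03 to 14.6 CPM (median 12.1) in CH larvae, against 14.5 to 37.6 CPM (median 17.9) in CC larvae (log2 fold change -0.92, SE 0.21, FDR 0.00739).

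Lysyl oxidase itself went the other way. LYOX (mme08650), which crosslinks collagen and elastin, had 24.3 to 46.3 CPM (median 35) in CH larvae, against 6.11 to 26.3 CPM (median 12.5) in CC larvae (log2 fold change 1.35, SE 0.28, FDR 0.00442). The other 2 transcripts with this symbol changed by 1.15 (mme08651) and 1.35 (mme13192), and in mme13192 the groups did not overlap.

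Listed muscle transcripts were lower for 40 of 42 (median -0.86), against 736 of all 1597 DETs. Here CC larvae were less spread than in the collagens. The mean over the list was -1.02 to -0.49 log2 units in CH larvae and -0.39 to 0.25 in CC larvae, with CC 3 lowest among the CC larvae. DYSF (mme17678), the membrane repair protein dysferlin, had 10.7 to 17 CPM (median 11.3) in CH larvae, against 14.5 to 42.7 CPM (median 35.1) in CC larvae (log2 fold change -1.39, SE 0.24, FDR 0.00122). TNNT2 (mme17214), the troponin T of heart muscle, had 7.09 to 10.2 CPM (median 8.63) in CH larvae, against 13.1 to 21.5 CPM (median 15.1) in CC larvae (log2 fold change -0.85, SE 0.16, FDR 0.00219), without overlap. RYR3 (mme09602), a calcium release channel found in muscle and brain, was higher by 0.50 (FDR 0.00795). Of the 42, 34 remained called without CC 1 and 29 without CC 2 or without CC 4.

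The epidermis was split, with 3 of 7 transcripts higher and 4 lower. PERP (mme05424), a protein of desmosomes, had 17.7 to 40.2 CPM (median 26.4) in CH larvae, against 31.2 to 71.3 CPM (median 47.5) in CC larvae (log2 fold change -0.83, SE 0.19, FDR 0.00819), and FAT2 (mme04452), a giant cadherin of epithelia, had 17.1 to 31.8 CPM (median 24.1) in CH larvae, against 23.2 to 63.4 CPM (median 36.7) in CC larvae (log2 fold change -0.69, SE 0.18, FDR 0.0195; FDR 0.0718 without CC 1). K1C18 (mme01722), the keratin 18 of simple epithelia, was higher in every CH larva than in any CC larva, with 40.6 to 50.2 CPM (median 46.9) in CH larvae, against 30.2 to 33.8 CPM (median 31.9) in CC larvae (log2 fold change 0.53, SE 0.12, FDR 0.00933). Without CC 1, 2 of the 7 were called.

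Digestive enzymes of the pancreas gave the largest downward changes, and their size rested on CC 1. All 14 transcripts were lower in CH larvae (median -4.01, range -5.55 to -1.78). TRY3 (mme06598), a trypsin, had 0 to 2.76 CPM (median 1.03) in CH larvae, against 246 CPM in CC 1, 33.8 in CC 6, 17.3 in CC 2, 7.31 in CC 5, 1.27 in CC 3 and 1.18 in CC 4 (log2 fold change -5.55, SE 1.09, FDR 0.00309). CC 1 thus stood far above every other CC larva, and CC 3 and CC 4 lay within the CH range. CTR2 (mme00793), a chymotrypsin, had 0.584 to 2.07 CPM (median 1.07) in CH larvae, against 1.35 to 104 CPM (median 3.81) in CC larvae (log2 fold change -4.09, SE 0.89, FDR 0.00603), and its FDR was 0.0860 without CC 1.

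CC 1 was also the highest CC larva for each of the other 13 members. AMYP (mme13164), pancreatic amylase, had 1.44 to 18.6 CPM (median 5.76) in CH larvae, against 9.81 to 134 CPM (median 23.8) in CC larvae (log2 fold change -2.47, SE 0.59, FDR 0.0108; FDR 0.0657 without CC 1). CEL2A (mme01198), an elastase, was the 1 member whose groups did not overlap, with 0.0835 to 0.753 CPM (median 0.450) in CH larvae, against 0.862 to 16 CPM (median 1.57) in CC larvae (log2 fold change -3.20, SE 0.70, FDR 0.00625). The trypsins TRY1 (mme06219 and mme06220) and TRY2 (mme12497) changed by -5.44, -5.40 and -3.89. The chymotrypsin-like protease CTRL (mme06580) changed by -3.92, and the elastases CEL2A mme07610, CEL2A mme07611 and ELA1 (mme03000) by -4.55, -4.47 and -3.71. Carboxypeptidases, which trim amino acids from protein ends, changed by -4.13 (CBPA1, mme01845), -1.78 (CBPA1, mme01869) and -2.49 (CBPB1, mme12144).

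Without CC 1 the direction of all 14 stayed and the median was -2.02, but 7 of 14 were called. This loss of calls was near that over all DETs, of which 48.3% lost their call without CC 1. The members that lost their call without CC 1 were TRY2 (FDR 0.0791), CTR2, CEL2A mme07610 (FDR 0.0628), ELA1 (FDR 0.0789), CBPA1 mme01869, CBPB1 (FDR 0.288) and AMYP. CBPA1 mme01869 also lost its call without CH 1, CH 4, CH 5 or CH 6, with an FDR of up to 0.323 over these 5 larvae. With limma-voom in place of edgeR, 2 of the 14 were called.

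The low choriolytic enzyme LCE, a protease named for softening the egg envelope at hatching in medaka, behaved alike in both of its transcripts. LCE mme00710 had 0.645 to 2.09 CPM (median 0.886) in CH larvae, against 1.10 to 113 CPM (median 8.58) in CC larvae (log2 fold change -4.43, SE 0.81, FDR 0.00206), the highest value again from CC 1, and 15.2 CPM in the next highest CC larva. LCE mme00664 changed by -4.12 (FDR 0.00689), and its FDR was 0.0550 without CC 1. Limma-voom called neither.

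**Figure D4:**
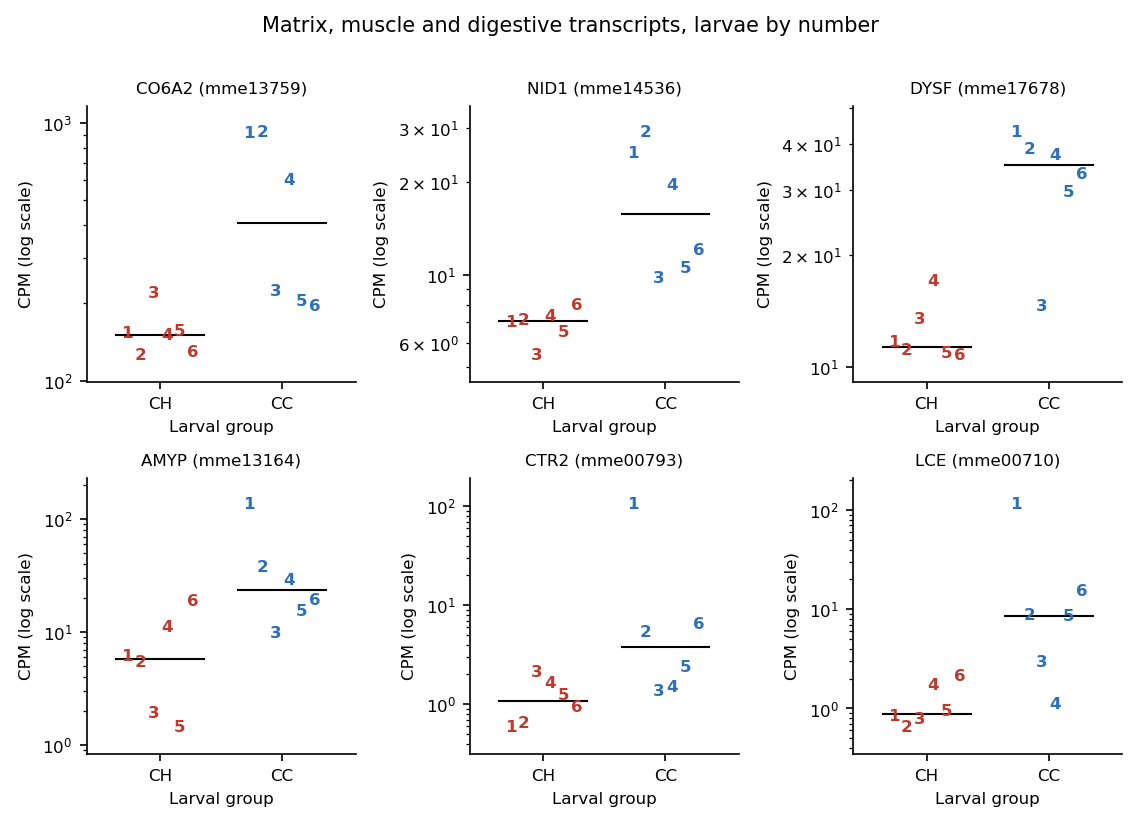
CPM (log scale) of 6 transcripts that were lower in CH, with each larva drawn as its number within its group (CH left, CC right, n=6 each) and the group median as a line. CC 1 stands apart in the digestive enzymes, at 104 CPM for CTR2 where the other CC larvae had 1.35 to 6.45 CPM, and CC 3, CC 5 and CC 6 lie near the CH larvae for CO6A2.

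Breakdown of the branched-chain amino acids was lower for all 11 listed transcripts (median -0.50). BCAT1 (mme14679), which removes their amino group in the first step, had 15.4 to 22 CPM (median 19) in CH larvae, against 25 to 50.2 CPM (median 39.4) in CC larvae (log2 fold change -1.05, SE 0.17, FDR 0.000990), without overlap. MCCB (mme09075), a subunit of the carboxylase in leucine breakdown, had 10.4 to 14.8 CPM (median 11.8) in CH larvae, against 14.1 to 22.3 CPM (median 18) in CC larvae (log2 fold change -0.58, SE 0.13, FDR 0.00671). Without CC 4, 6 of the 11 were called, and 7 without CC 2.

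Glucose and fat metabolism was divided, with 8 of 22 transcripts higher and 14 lower. KPBB (mme00636), a subunit of the kinase that starts glycogen breakdown, had 18.1 to 30.4 CPM (median 23.4) in CH larvae, against 32 to 42 CPM (median 39.4) in CC larvae (log2 fold change -0.70, SE 0.13, FDR 0.00231). PYC (mme17764), pyruvate carboxylase, the entry to glucose synthesis, had 5.34 to 9.51 CPM (median 7.94) in CH larvae, against 10.5 to 18.6 CPM (median 14.7) in CC larvae (log2 fold change -0.96, SE 0.19, FDR 0.00391). Neither overlapped. Enzymes of glucose synthesis went both ways. G6PC, the phosphatase that releases glucose from liver, changed by -1.19 (FDR 0.00513), and F16P1, a fructose-bisphosphatase, by 0.85 (FDR 0.0118). Among glycolytic enzymes, PGAM1 (mme13897), phosphoglycerate mutase, was higher, with 157 to 235 CPM (median 207) in CH larvae, against 111 to 167 CPM (median 127) in CC larvae (log2 fold change 0.58, SE 0.11, FDR 0.00240), as were ENOG at 0.48 (neuronal enolase, FDR 0.00624) and PFKAM at 0.80 (a phosphofructokinase, FDR 0.0243).

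Listed immune transcripts were lower for 19 of 21 (median -1.14). TNAP3 (mme05425), a brake on inflammatory signaling, had 5.71 to 11.6 CPM (median 9.15) in CH larvae, against 12.3 to 25.7 CPM (median 17.3) in CC larvae (log2 fold change -0.96, SE 0.18, FDR 0.00254). TRI25 (mme14614), a ubiquitin ligase of antiviral sensing, had 1.08 to 4.27 CPM (median 2.91) in CH larvae, against 5.29 to 11.4 CPM (median 6.72) in CC larvae (log2 fold change -1.45, SE 0.28, FDR 0.00265). Both separated. MYD88 (mme12133), the adaptor of Toll-like receptors, was 1.29-fold higher, with 95.3 to 131 CPM (median 110.4) in CH larvae, against 82.2 to 100.2 CPM (median 86.7) in CC larvae (log2 fold change 0.36, SE 0.08, FDR 0.00860). The list depended on CC 1, without which 6 of 21 were called at a median of -0.88. Without CC 2, 10 were called. Of all DETs, 48.3% lost their call without CC 1 and 47.9% without CC 2. CC 1 had the highest mean of the list, at 0.91 log2 units, and CC 3 the lowest CC value, at -0.76, close to the highest CH larva at -0.85.

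Listed splicing factors were higher for 16 of 18 transcripts by small amounts (median 0.39). RBM5 (mme03318), an RNA-binding regulator of exon choice, had 93.8 to 133 CPM (median 112) in CH larvae, against 62.8 to 87.1 CPM (median 71.7) in CC larvae (log2 fold change 0.63, SE 0.12, FDR 0.00240), and SPF30 (mme05511), a spliceosome assembly factor, had 29 to 40.9 CPM (median 32.7) in CH larvae, against 22.9 to 29.4 CPM (median 24.4) in CC larvae (log2 fold change 0.44, SE 0.10, FDR 0.00683). PTBP1 (mme09934), a splicing repressor that is low in mature neurons of mammals, was lower, with 17.8 to 36 CPM (median 23.9) in CH larvae, against 26.9 to 74.4 CPM (median 35.3) in CC larvae (log2 fold change -0.83, SE 0.21, FDR 0.0128). Without CC 1 or CC 2, 8 of the 18 were called, and 2 of the 18 in a fit of the CH and CC larvae alone.

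Among all DETs whose groups did not overlap, the 5 largest upward changes included CX6B1 and SHH and 3 transcripts of low level. RBM48 (mme19672), an RNA-binding protein, had 0.630 to 1.51 CPM (median 0.855) in CH larvae, against 0 to 0.504 CPM (median 0.204) in CC larvae (log2 fold change 1.94, SE 0.53, FDR 0.0236), and lost its call without CC 2, CC 4 or CH 6 (FDR up to 0.0599). TMC3 (mme00667), a transmembrane channel-like protein, had 1.29 to 1.71 CPM (median 1.44) in CH larvae, against 0.174 to 0.846 CPM (median 0.523) in CC larvae (log2 fold change 1.53, SE 0.32, FDR 0.00499). NMES1 (mme00067), a small mitochondrial protein, had 2.12 to 4.05 CPM (median 2.59) in CH larvae, against 0.676 to 1.60 CPM (median 0.906) in CC larvae (log2 fold change 1.48, SE 0.39, FDR 0.0172). Each of the 3 was higher in all 6 CH larvae than in any CC larva.

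The 5 largest downward changes of this kind were again in transcripts of low level in CH larvae. Transcript mme02829, which has no symbol, had 0.230 to 1.58 CPM (median 1.21) in CH larvae, against 1.86 to 15.6 CPM (median 3.24) in CC larvae (log2 fold change -2.36, SE 0.50, FDR 0.00485). C1QA (mme02830), a chain of complement C1q, had 0 to 0.461 CPM (median 0.258) in CH larvae, against 0.676 to 2.90 CPM (median 1.51) in CC larvae (log2 fold change -2.66, SE 0.69, FDR 0.0178; FDR 0.0552 without CC 1). Transcript mme02827, also without a symbol, changed by -2.78, and its FDR was 0.113 without CC 1. CEL2A mme01198 was described with the digestive enzymes. TECTA (mme16552), alpha-tectorin of the membranes over inner ear hair cells, had 0.0921 to 1.51 CPM (median 0.750) in CH larvae, against 1.93 to 18 CPM (median 5.12) in CC larvae (log2 fold change -3.24, SE 0.61, FDR 0.00249) and kept its call with every larva left out. Its response in CH over CC minus that in HH over HC was -3.38, about as large as the change itself. This difference was -2.545 for mme02829, -2.39 for C1QA, -2.392 for mme02827 and -2.06 for CEL2A mme01198. None of these differences passed an FDR of 0.05, and they are partly built in by the choice of transcripts.

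The rearing contrast was read again in the 12 larvae of HypOA-treated parents. These larvae did not enter the contrast of CH and CC, but they were part of the fit that called the DETs, through its filter, scaling and estimate of spread. HH and CH larvae were also reared in the same set of tanks, as were HC and CC larvae. A fit of CH and CC alone called 544 DETs. Of the 1597 DETs, 1332 (83.4%) had the same direction in HH over HC, against 61.1% of all tested transcripts. This was 85.8% of upward and 80.6% of downward DETs. An unadjusted p below 0.05 in HH versus HC with the direction of CH versus CC was reached by 323 DETs (20.2%), against 6.51% of all tested transcripts. At an FDR of 0.05, 0.0232% of tested transcripts were called in HH versus HC, and these 4 were DETs of CH versus CC. Since the transcripts were chosen for their change in CH versus CC, their sizes there and in HH versus HC cannot be compared fairly. In a test of the difference of both responses, 0 of 17262 transcripts passed an FDR of 0.05 with edgeR (smallest FDR 0.210). An unadjusted p below 0.05 was found for 1845 of the 17262. Of the 1845, 812 were DETs, which had been chosen for their change in CH versus CC. The lack of calls does not show that both responses were alike.

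All 6 globins were higher in HH than in HC larvae, as were 85.8% of all upward DETs. An unadjusted p below 0.05 was reached by 5 of the 6, and the list median was 2.31 there and 2.34 in CH over CC. The mean over the list, set against CC as before, was 1.54 to 2.59 log2 units in HH larvae and -0.60 to 0.60 in HC larvae, so that these groups did not overlap either. HBBA mme15343 had 17.1 to 78.1 CPM (median 30.8) in HH larvae, against 0.702 to 5.83 CPM (median 2.27) in HC larvae (log2 fold change 3.62, FDR 0.0712). Its HH and HC larvae did not overlap, which held for 0.938% of all tested transcripts. MYG had 1.19 to 5.18 CPM (median 2.55) in HH, against 0.0833 to 2.32 CPM (median 0.642) in HC (log2 fold change 1.61, FDR 0.473). Neither passed the FDR of 0.05.

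All 10 transcripts of the heme and iron list had the same direction in HH over HC as in CH over CC, against 83.4% of all DETs. An unadjusted p below 0.05 was reached by 5 of the 10, against 20.2% of all DETs. Of these, HEPC changed by -2.34 (unadjusted p=0.000255), HEM0 by 0.91 (unadjusted p=0.00554), NFS1 by -0.56 (unadjusted p=0.00476) and ISCA1 by -0.35 (unadjusted p=0.0192) in HH over HC, beside ISCU. The other 5 did not reach it, at 0.17 for HEM1, 0.39 for TAL1, 0.036 for CY561, -0.19 for SFXN1 and -0.09 for FX1AA.

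The 4 transcripts called in both pairs of groups were all mitochondrial or antioxidant. In HH over HC, ISCU changed by -1.29 (FDR 5.64e-06), PRDX5 by -1.03 (FDR 9.71e-06), SODC by -0.52 (FDR 0.0143) and CX6B1 by 1.24 (FDR 0.0317). Other mitochondrial transcripts gave other values. NNTM, at -1.27 in CH over CC, was -0.14 in HH over HC, and MCU, at -0.69, was -0.06. The difference of both responses did not pass for either (NNTM unadjusted p=0.00258, FDR 0.366; MCU unadjusted p=0.00965, FDR 0.366).

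In the 8 nervous system lists, 165 of 186 transcripts (88.7%) had the same direction in HH over HC, near the 85.8% of all upward DETs. For transmitter receptors the list mean was 0.34 to 0.75 log2 units above CC in HH larvae and 0.13 to 0.48 in HC larvae, and in all 6 HC larvae it was above the CC mean. The lists were chosen for their difference between CH and CC, so a level of HC between the CC and CH levels is a description only. Retina kept the direction for 3 of 6, with a median of -0.014. Among matrix lists 72 of 80 transcripts (90.0%) had the same direction, against 80.6% of all downward and 85.8% of all upward DETs. List medians in HH over HC were -0.26 for collagens, -0.17 for matrix glycoproteins and laminins and -0.011 for matrix processing, and for the neural lists they lay between -0.014 for retina and 0.25 for synaptic adhesion and scaffold. CO6A2 had 125 to 287 CPM (median 228) in HH larvae, against 198 to 358 CPM (median 272) in HC larvae (log2 fold change -0.39, unadjusted p=0.255). All 14 digestive enzymes and all 11 transcripts of branched-chain amino acid breakdown also kept their direction, against 80.6% of all downward DETs. Of each, 7 had an unadjusted p below 0.05. This was reached by 20.2% of all DETs in the direction of CH versus CC, and by 8.24% of all tested transcripts in either direction. Splicing kept its direction for 12 of 18 (66.7%), near the 61.1% of all tested transcripts and below the 85.8% of upward DETs.

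**Figure D5:**
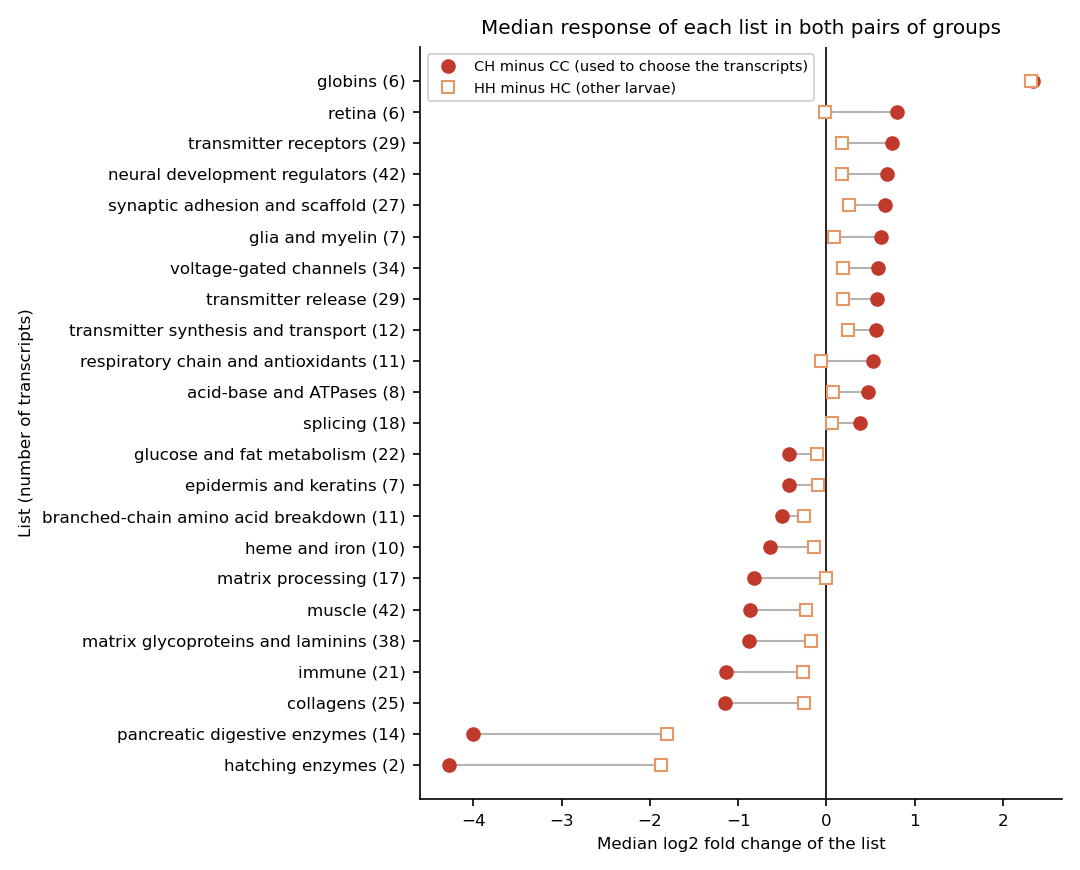
Median log2 fold change of each list in CH over CC (filled circles) and in HH over HC (open squares), with the number of transcripts in brackets. The transcripts were chosen by their contrast of CH and CC, in a fit that also held HH and HC. Globins sit at 2.34 and 2.31, while retina sits at 0.80 and -0.014.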

How the data were processed

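Whole larvae were sequenced as RNA-seq libraries, 6 in each of the groups CH, CC, HH and HC, as the labels give them. The authors deposited unnormalised read counts per transcript from HTSeq (0.11.1), counted on reads aligned with STAR (2.6.1d), and tested them with edgeR (3.40.2), per the submitters' processing notes. Those notes name Trimmomatic and the study's methods Fastp for trimming. Libraries were made with a directional kit and aligned to a M. menidia reference genome. The name of its build and the strand and overlap settings of the counting were not given in the sources used here. Each file's 5 summary lines entered neither library sizes nor tests.

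The 20651 entries were summed to 20210 genes, called transcripts here. With edgeR (4.0.16, R 4.3.3), transcripts passing filterByExpr (minimum count 10, minimum total 15) were kept (17262), scaled with TMM factors and fitted with the quasi-likelihood model to all 24 larvae in 4 groups. The main contrast was CH over CC, two-sided, at a Benjamini-Hochberg FDR of 0.05, and HH over HC was taken from the same fit. SE is the log2 fold change divided by the square root of F. Levels are CPM, and list means use log2 CPM with a prior count of 2. Group differences in read classes were tested with exact permutation tests. The script was tested on simulated data.

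Members and lists were chosen with earlier results of these data known. The transcripts described in full were, per list, the 2 with the lowest FDR in the main direction and the 1 with the lowest FDR in the other, all members for globins, heme and iron, respiratory chain and digestive enzymes, and the 5 largest changes in each direction among DETs whose groups did not overlap. CO9A1, COAA1, COBA1, LMO3, MYPR, G6PC, F16P1, ENOG, PFKAM and further copies of S6A13 and LYOX were added after their values were seen. The same holds for SEM5A, NAV3, ACHB, CA2D3 and a further copy of CA2D1.

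Alternatives were DESeq2 (1.42.0), limma-voom (limma 3.58.1), other size factors, no filter, the newer quasi-likelihood method, unsummed entries, a fit of CH and CC alone, a replicate block, and each larva left out in turn. No sequence was used. Counted reads per larva give the depth, and no count of 0 is read as absence.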

Additional observations from a re-analysis of the deposited data

Results flagged for a closer look

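In 10 of 200 group tests 1 larva stood far from the other 5 of its group for a transcript described above, and chance alone flags about 1 in 20 groups. HTR1A had 19.2 CPM in CH 6 and 28.5 to 31.6 CPM in the other CH larvae. TIM8A mme03888 had 45.1 CPM in CH 2 and 27.6 to 31.9 CPM in the others. LAMB1 mme17184 had 30.1 CPM in CH 4 and 16.6 to 20.7 CPM in the others. TRI25 had 1.08 CPM in CH 1 and 2.61 to 4.27 CPM in the others.

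Among CC larvae, CC 1 was high in CTR2, with 104 CPM against 1.35 to 6.45 CPM in the other CC larvae. It was also high in CEL2A mme01198, with 16 CPM against 0.862 to 1.70 CPM, and in mme02827, with 7.38 CPM against 1.16 to 1.80 CPM. CC 2 was low in HBBA mme15342, with 0.155 CPM against 1.28 to 2.51 CPM. CC 3 was low in DYSF mme17678, with 14.5 CPM against 29.5 to 42.7 CPM. CC 4 was high in TNNT2, with 21.5 CPM against 13.1 to 15.2 CPM. The part of the single larvae in the differences between CH and CC is given beside each result above.

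Reads outside the count table also differed. The share of aligned reads on no annotated feature averaged 21.53% in CH larvae and 19.91% in CC larvae.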

How the results depend on the processing

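With 1 larva left out at a time, the count of DETs lay between 849 (without CC 1) and 2054 (without CC 3). Upward DETs numbered 482 (without CC 2) to 1026 (without CC 5) and downward DETs 359 (without CC 1) to 1064 (without CC 3). The share of DETs with the same direction in HH over HC stayed between 79.9% (without CC 6) and 87.6% (without CC 2). A fit of the CH and CC larvae alone called 544 DETs (298 higher, 246 lower; same direction in HH over HC for 89.6%), and DESeq2 called 2092 (1042 higher, 1050 lower; 80.8%). The cause was not tested. Limma-voom called 1445, other size factors 1607, no filter 1502, the newer quasi-likelihood method 1679 and unsummed entries 1604. Of the 100 transcripts given by the naming rule, 18 were no longer called without CC 1, 11 without CC 2, 15 with limma-voom and 26 in the fit of CH and CC alone, which left TRY2, RBM48 and C1QA out of its test. No transcript reversed direction under a setting that tested it.

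The labels number larvae 1 to 6 in each group. Deviations of same-numbered CH and CC larvae correlated at -0.273 to 0.0474, so the numbers do not pair them. With the replicate number as a block, 1296 DETs were called (743 higher, 553 lower), of which 85.5% had the same direction in HH over HC, and 7 of the 100 transcripts lost their call.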

Other observations

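Transcripts outside the lists were also looked at, and those named here were chosen after their values were seen, among DETs that kept their call with every larva left out. Several belong to neurons as well. NEUM (mme05038), the growth cone protein neuromodulin, averaged 137 CPM in CH larvae and 88.0 CPM in CC larvae (log2 fold change 0.64, SE 0.11, FDR 0.00120 with edgeR). MTAP2 (mme08076), a microtubule protein of dendrites, averaged 59.8 CPM in CH larvae and 35.5 CPM in CC larvae (0.75, SE 0.13, FDR 0.00150). KPCG (mme06337), the protein kinase C form of brain, averaged 82.6 CPM in CH larvae and 44.1 CPM in CC larvae (0.91, SE 0.15, FDR 0.00112). The calcium-binding proteins VISL1 (mme09984) and SEGN (mme06653) changed by 0.71 and 0.73. In HH over HC the changes of NEUM, MTAP2, KPCG, VISL1 and SEGN had the same direction, at 0.18, 0.21, 0.34, 0.28 and 0.18, and none passed an FDR of 0.05.

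GCYA2 (mme04870), a subunit of the guanylate cyclase that nitric oxide activates, averaged 15 CPM in CH larvae and 6.97 CPM in CC larvae (log2 fold change 1.11, SE 0.16, FDR 0.000553 with edgeR). In the other direction, TETN (mme12559), the plasminogen-binding protein tetranectin, averaged 2.92 CPM in CH larvae and 12.4 CPM in CC larvae (-2.08, SE 0.35, FDR 0.00112). NAGS (mme15481), which makes the activator of the urea cycle, averaged 12 CPM in CH larvae and 21.7 CPM in CC larvae (-0.86, SE 0.15, FDR 0.00197). In HH over HC, GCYA2 was 0.46, TETN was -0.93 and NAGS was -0.47, each with an unadjusted p below 0.05 and an FDR above it.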
